A study of Drosophila melanogaster with 4 samples.

Results

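The genes serp, verm, kkv, Gasp and uif were found by their symbols in the RefSeq gene table, which made 5 of the 13946 that code for a protein on the chromosomes 2, 3, 4, X and Y. Their products build the chitin and the apical matrix that fill and line the tracheal tube and other epithelial tubes of the Drosophila embryo. The question was whether the transcription factor Ribbon (Rib), which is needed for the trachea and the salivary gland to elongate, was found at these genes. ChIP-seq, the sequencing of DNA pulled down with a protein, was done with an anti-GFP antibody on GFP-tagged Rib.

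Chromatin came from sorted embryos of stages 11 to 16, which were fkh-GAL4::UAS-rib-GFP or, in the second group, sage-GAL4::UAS-rib-GFP. Both groups carried a UAS-rib-GFP transgene, and the labelled genotypes differ in the Gal4 driver. Each driver gave 1 immunoprecipitation and 1 input, each merged from 3 collections. Both drivers are in use for transgenes of the salivary gland, so the tagged protein was made where a driver was active and not under the control of the rib gene. Which cells held it, and whether tracheal cells did, was not measured in these data, and peak positions hold no marker by which to check the tissue.

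In a growing tube, chitin is made at the apical membrane, is released into the lumen and forms a fibrous cable there that later is cleared. Enzymes and binding proteins secreted into the lumen modify the fibres, and embryos that lack them form tubes that are too long or uneven in width. The tracheal lumen is the best-known site of this matrix in the fly embryo.

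The deposited data are 1 list of peaks per driver, with 4196 peaks for fkh-Gal4 and 907 for sage-Gal4. A peak is a stretch of the genome where the authors' peak caller placed the protein. No peak has a height, score or p-value, there is no replicate list, and the depth of the libraries is unknown. A peak that is missing from a list is thus not shown to be missing from the embryos, and every count below is a description of these lists, with no error and no test. All positions are in the dm6 build.

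Within 10 kb of these genes there were peaks of the fkh-Gal4 list and none of the sage-Gal4 list. Of the 5 genes, 1 had a fkh-Gal4 peak in its body (uif), 2 had one in the body or within 1 kb of it (uif and serp), and 3 had one within 10 kb (uif, serp and kkv). In the sage-Gal4 list the count was 0 of 5 at each of these distances. Among all protein-coding genes, the fkh-Gal4 list reached 8.15% in the body, 11.6% within 1 kb and 29.5% within 10 kb, and the sage-Gal4 list reached 3.71%, 5.62% and 14.8%. The sage-Gal4 count of 0 among 5 genes thus stands beside a background that would itself leave most genes without a peak.

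**Figure D1:**
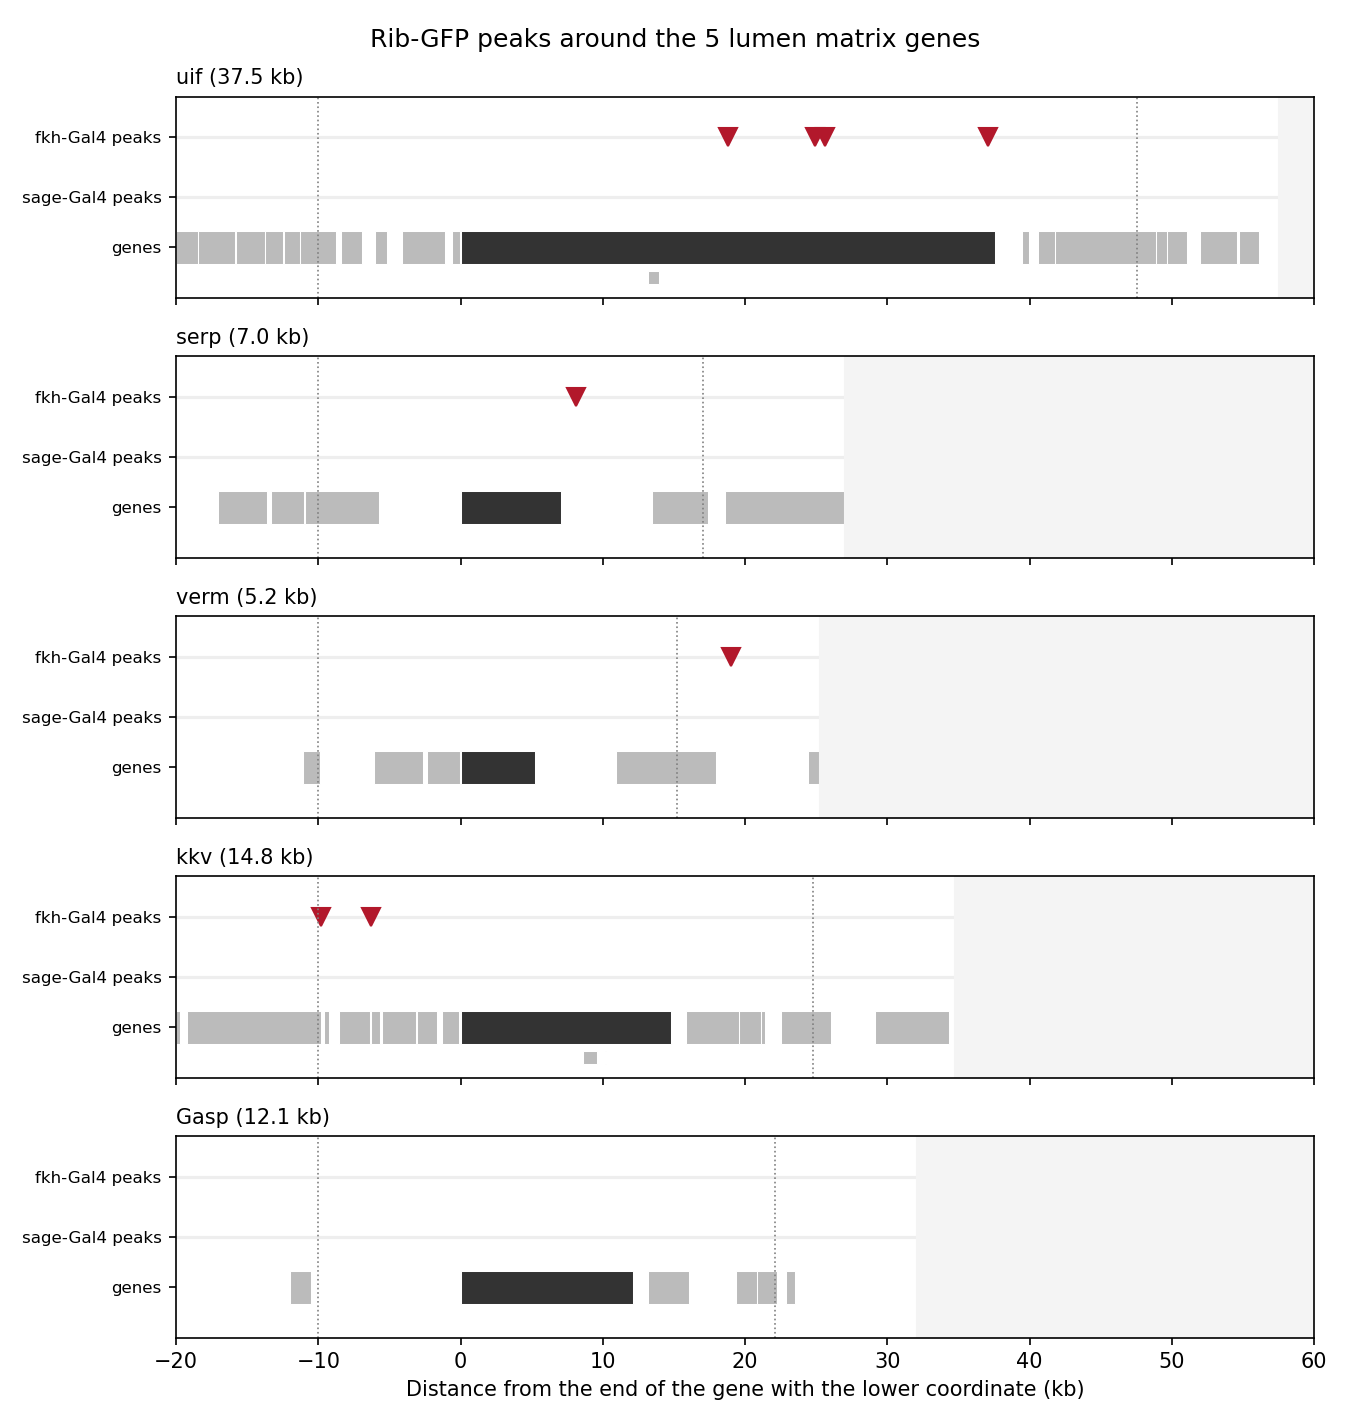
Peak centres (triangles) of the fkh-Gal4 list (red, upper row) and the sage-Gal4 list (blue, lower row) around each gene, with the gene in black, its neighbours in grey and genes that lie inside it drawn below it; the x axis is the distance in kb from the gene's end with the lower coordinate, dotted lines mark 10 kb on either side and shading covers what lies over 20 kb beyond the gene. The 4 triangles of uif lie inside it, the triangle of serp lies 980 bp beyond it, the same peak reappears 13.7 kb from verm, the triangles of kkv lie 6.28 and 9.76 kb away, and the sage-Gal4 rows are empty.

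The gene uif (uninflatable, Dmel_CG9138) encodes a large transmembrane protein with EGF-like repeats that sits on the apical surface of epithelial cells and is needed for the tracheae to inflate. It spans 37.5 kb of chromosome arm 2L (6972828 to 7010359), with 6 RefSeq transcripts, and 96.4% of protein-coding genes are shorter. It held 4 fkh-Gal4 peaks and 0 sage-Gal4 peaks.

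The lowest of the uif peaks, 106 bp wide (6991589 to 6991694), lay at the middle of the gene, at 50.1% of its length. The next, 263 bp wide (6997565 to 6997827), lay 24.9 kb from the end with the lower coordinate, and the third, 95 bp wide (6998425 to 6998519), began 597 bp after it. The last, 184 bp wide (7009808 to 7009991), lay just inside the end with the higher coordinate, 368 bp from it. The peaks were therefore unevenly spread, with 1 at a gene end, a close pair and 1 alone in the interior, and the stretch of 18.8 kb from the lower end had none.

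Together the 4 peaks covered 648 bp, or 1.73% of uif. The widest of them was wider than 85.3% of the fkh-Gal4 peaks and the narrowest was wider than 30.1%, so they were neither all wide nor all narrow for that list. A noncoding gene, lncRNA:CR44326, lies within uif, and no peak of either list fell on it. Which of the 6 transcripts starts near the last peak cannot be told, since the gene table gives neither strand nor transcript starts.

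Long genes meet more peaks, and uif was set beside genes of its own size. Of the 1019 protein-coding genes of 20 kb and longer, whose median length is 37.2 kb, 44.7% had a fkh-Gal4 peak in the body and 21.8% had a sage-Gal4 peak. A body with 4 or more fkh-Gal4 peaks was found for 106 of these genes (10.4%). The density of fkh-Gal4 peaks was 1.07 per 10 kb in uif and 0.245 per 10 kb over all genes of that class. A gene with many fkh-Gal4 peaks often had a sage-Gal4 peak too: of those 106 genes, uif was among the 40 (37.7%) with none in the body.

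**Figure D2:**
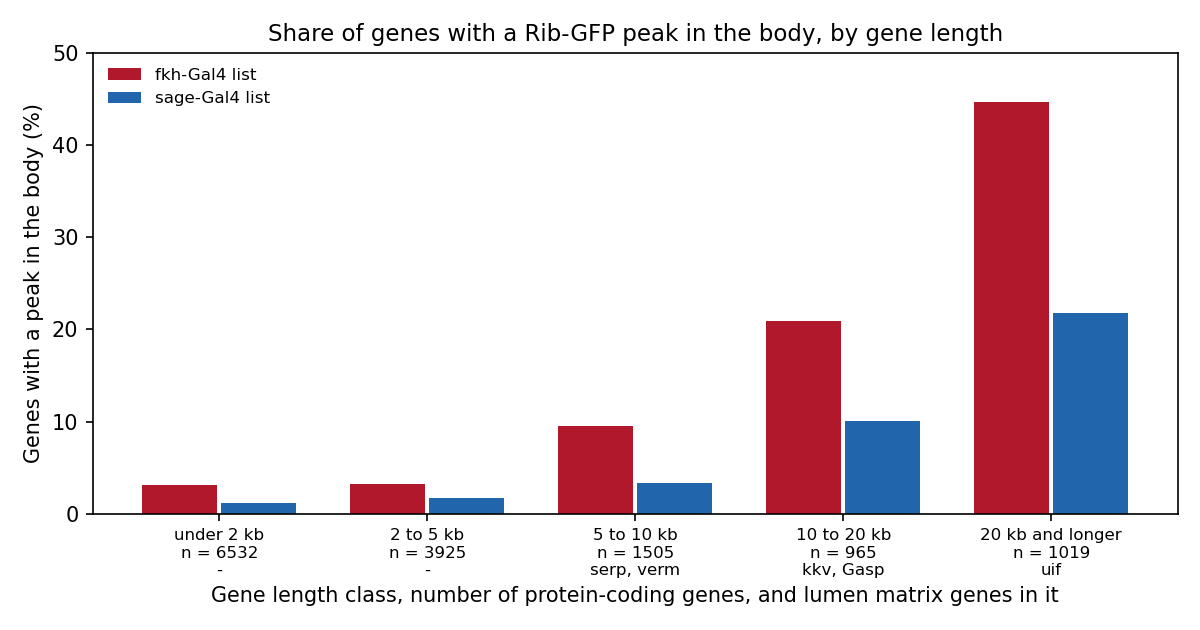
Share of protein-coding genes with at least 1 peak in the body (y axis, %) by gene length class (x axis), for the fkh-Gal4 list (red) and the sage-Gal4 list (blue), with the number of genes and the lumen matrix genes of each class named below it. The share is highest in the class of uif, at 44.7% for fkh-Gal4 and 21.8% for sage-Gal4, and is 9.57% and 3.39% in the class of serp and verm.

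The chitin deacetylases serp (serpentine, Dmel_CG32209) and verm (vermiform, Dmel_CG8756) encode secreted enzymes that modify chitin in the tracheal lumen and keep the tubes from growing too long. They are neighbours on 3L, verm at 19690033 to 19695260 and serp at 19700977 to 19708015, with 5716 bp and no annotated gene between them. Neither gene held a peak in its body in either list, and none lay between them.

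A single fkh-Gal4 peak of 139 bp (3L, 19708995 to 19709133) lay on the far side of serp, 980 bp beyond the end with the higher coordinate. It fell in the space of 6402 bp between serp and Trpml, which encodes a lysosomal ion channel, and overlapped no annotated gene. Its distance to Trpml was 5285 bp, so the end of serp was the nearest gene end. In width it exceeded 58.0% of the fkh-Gal4 peaks, which is near the middle of that list.

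That peak was also the nearest to verm, at 13.7 kb, with the whole of serp between them. The pair thus differed within the rule used here only through this 1 peak: serp counted within 1 kb by a margin of 20 bp, and verm fell outside 10 kb. On the side of verm away from serp, the next fkh-Gal4 peak was 54.2 kb away. The nearest sage-Gal4 peak was 110 kb from serp and 99.3 kb from verm, on that same side. Of the 1505 genes of 5 to 10 kb, the class of both, 13.8% had a fkh-Gal4 peak within 1 kb and 6.38% a sage-Gal4 peak.

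The gene kkv (krotzkopf verkehrt, Dmel_CG2666; 3R, 5378093 to 5392866) encodes the chitin synthase of the cuticle and the trachea, the enzyme that makes the fibres. Its 14.8 kb body held no peak in either list and none lay within 1 kb. The fkh-Gal4 list had 2 peaks within 10 kb, both on the side with the lower coordinate, at 6.28 kb and 9.76 kb.

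Both peaks sat at the ends of other genes. The nearer, 116 bp wide (5371695 to 5371810), overlapped the ends of CG31542 and CG34277, which share their coordinates in the table, and of Polr2F, which encodes an RNA polymerase subunit; its centre lay 8.5 bp from an end. The other, 164 bp wide (5368167 to 5368330), overlapped an end of Cerk, the ceramide kinase gene, with its centre 57.5 bp from it. Between the nearer peak and kkv lie hd, CG14667 and 7B2. When each peak was given only to the nearest gene body, kkv had no peak within 10 kb and the count of genes fell to 2 of 5. Under that rule the share of all protein-coding genes fell as well, to 10.6% in place of 29.5%.

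The genes inside kkv, CG14668 and the tRNA gene tRNA:Arg-TCG-4-1, had no peak either. Beyond the other end of kkv the next peak of the fkh-Gal4 list was 74.2 kb away. For the sage-Gal4 list the nearest peak was 49.9 kb from kkv. Of the 965 genes of 10 to 20 kb, the class of kkv and Gasp, 38.9% had a fkh-Gal4 peak and 21.5% a sage-Gal4 peak within 10 kb.

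The gene Gasp (Dmel_CG10287; 3R, 6088799 to 6100887) encodes a chitin-binding protein of the obstructor family, the antigen by which the 2A12 antibody labels the tracheal lumen. It was the farthest from any peak. The nearest fkh-Gal4 peak was 74.4 kb away and the nearest sage-Gal4 peak 282 kb away. Of all protein-coding genes, 14.1% lay farther from a fkh-Gal4 peak and 5.77% farther from a sage-Gal4 peak. Within 50 kb of Gasp both lists had 0 peaks, as they did for 25.4% (fkh-Gal4) and 53.5% (sage-Gal4) of genes.

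**Figure D3:**
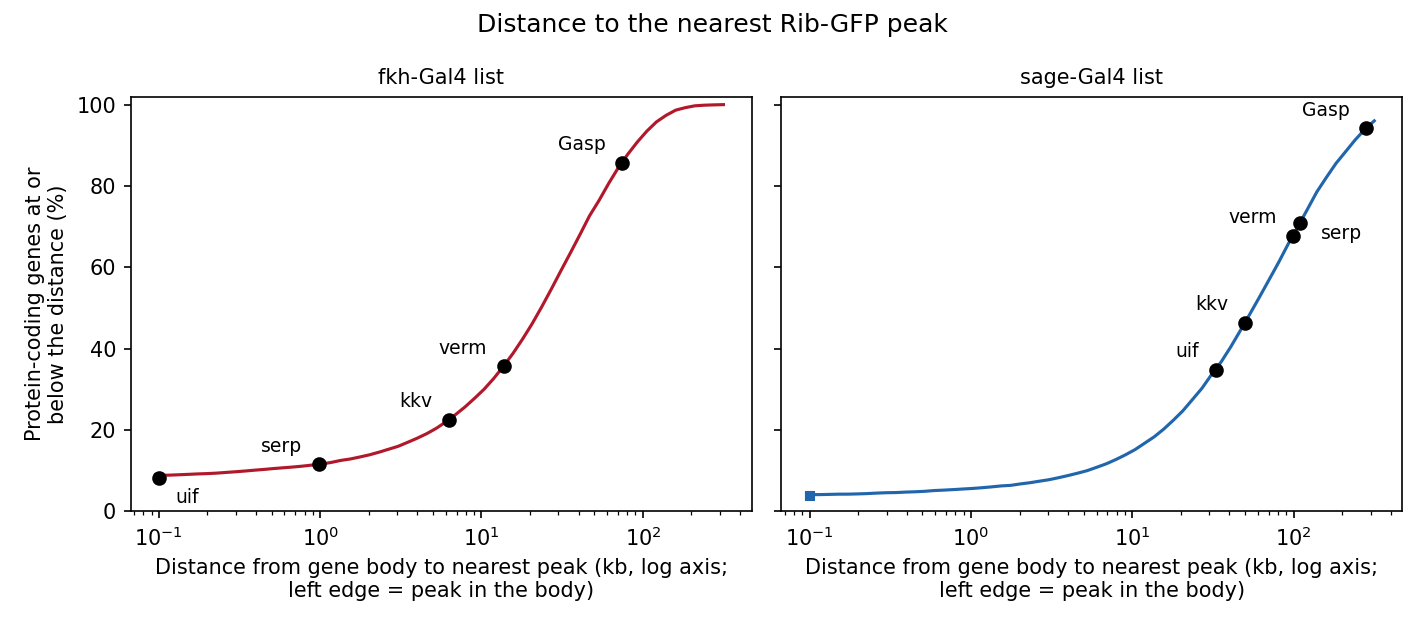
Share of protein-coding genes (y axis, %) whose nearest peak lies at or below a given distance from the gene body (x axis, kb, log scale; the left edge stands for a peak in the body), for the fkh-Gal4 list (left) and the sage-Gal4 list (right), with the lumen matrix genes as black points. In the fkh-Gal4 panel the points run from uif at 0 through serp, kkv and verm to Gasp at 74.4 kb, and in the sage-Gal4 panel from uif at 32.8 kb to Gasp at 282 kb.

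Ordered by the distance to the nearest fkh-Gal4 peak, the genes were uif (0 kb), serp (0.98 kb), kkv (6.28 kb), verm (13.7 kb) and Gasp (74.4 kb). The median over all protein-coding genes was 23.5 kb, so 4 of the 5 lay closer than the median gene and Gasp lay farther. The 5 genes are long, with a median of 12089 bp against 2161 bp for all, and no median for genes of like length was taken. Both serp and verm were measured to the same peak. By the nearest sage-Gal4 peak the order was uif (32.8 kb), kkv (49.9 kb), verm (99.3 kb), serp (110 kb) and Gasp (282 kb), with a median of 56.0 kb over all genes. Against that list uif and kkv lay closer than the median gene and the other three lay farther. With no error on a distance, it cannot be said which neighbours in these orders differ.

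No fkh-Gal4 peak at these genes had a counterpart in the sage-Gal4 list. Of the 7 fkh-Gal4 peaks within 10 kb, 0 overlapped a sage-Gal4 peak, and the nearest sage-Gal4 peak was between 33.2 kb and 118 kb from them. Over all fkh-Gal4 peaks on the same chromosomes, 561 of 3372 (16.6%) overlapped one. The sage-Gal4 list is shorter, and 588 of its 868 peaks on these chromosomes (67.7%) overlapped a fkh-Gal4 peak. The absence of overlap thus rests on 7 peaks and stands beside a share that is itself low in the whole fkh-Gal4 list.

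The pattern of a fkh-Gal4 peak and no sage-Gal4 peak within 10 kb was shared by uif, serp and kkv with 17.7% of all protein-coding genes, while verm and Gasp, with no peak of either list in that range, stood with 67.5% of genes. Likeness was measured as equal counts in the body, within 1 kb and within 10 kb in both lists, 6 counts per gene. By that measure uif had 12 equals, of which CG43954 and Lasp, a pair that share their coordinates, were nearest in length. For serp there were 185 equals, with Hen1 and CG18549 nearest in length, and for kkv 311, with Root and Elovl7. For verm and Gasp the equals were 9408 genes, the nearest in length being Tdc2 and Orco for verm, and mip130 and Sytalpha for Gasp.

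The fkh-Gal4 counts of 1, 2 and 3 genes in the body, within 1 kb and within 10 kb were set against the shares of each gene's own length class, which summed to 1.06, 1.25 and 2.03 of 5 genes. For the sage-Gal4 counts of 0 the same sums were 0.487, 0.61 and 1.05 genes. The counts for these 5 genes were thus within about 1 gene of what genes of like length gave in either list.

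The other genes that make, modify or carry the matrix were counted in the same way. Of 53 names asked, 51 matched by symbol; Cht3, which the table gives as an older name of Cht10, and cypher did not. Within 1 kb, 10 of the 51 genes (19.6%) had a fkh-Gal4 peak and 6 (11.8%) a sage-Gal4 peak, against 11.6% and 5.62% of all protein-coding genes. These genes are longer than most, with a median of 4288 bp, against 2161 bp for all. The counts of 10 for fkh-Gal4 and 6 for sage-Gal4 lay near the background for genes of that length, whose class shares summed to 9.35 and 4.59 genes.

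**Figure D4:**
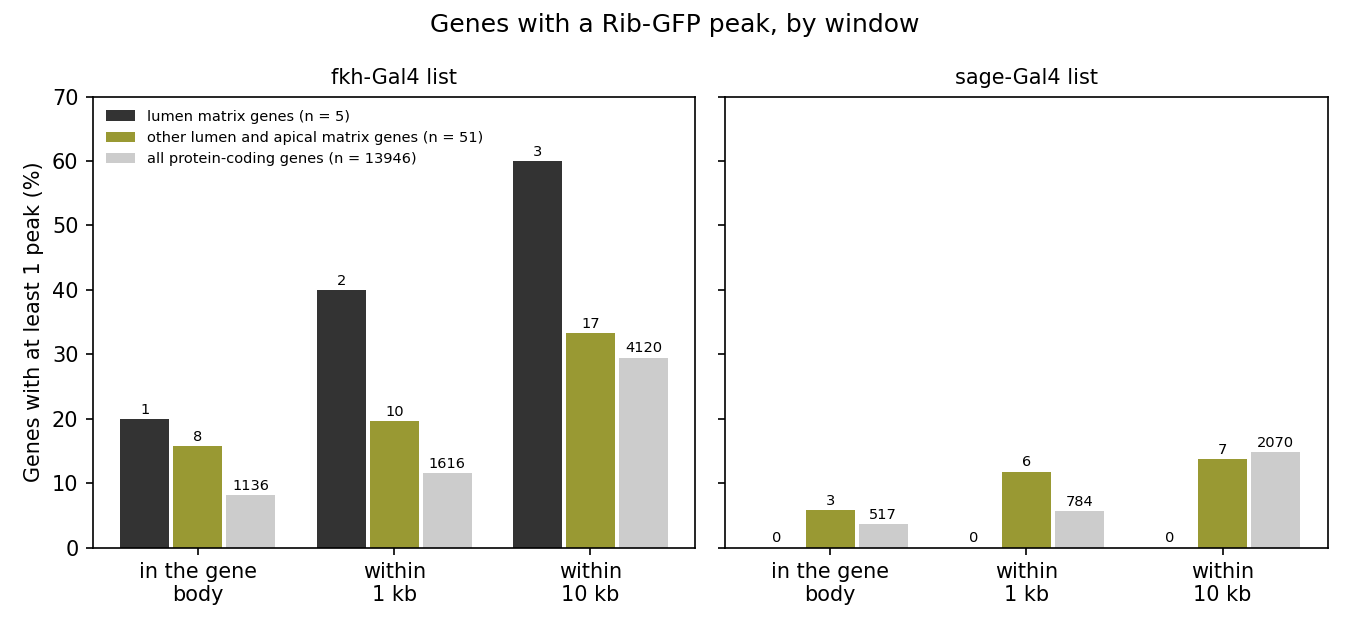
Share of genes with at least 1 peak (y axis, %) in the gene body, within 1 kb and within 10 kb (x axis) in the fkh-Gal4 list (left) and the sage-Gal4 list (right), for the 5 lumen matrix genes (black), 51 other lumen and apical matrix genes (olive) and all 13946 protein-coding genes (grey); the number above a bar is the number of genes with a peak. The black bars stand for 1, 2 and 3 genes in the fkh-Gal4 list and for 0 in the sage-Gal4 list.

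Of 5 genes for the sugar precursor of chitin, which kkv uses, 2 had a fkh-Gal4 peak within 1 kb and 2 a sage-Gal4 peak. The class shares summed to 0.601 and 0.286 genes, beside 11.6% and 5.62% of all protein-coding genes. Whether these few genes differ from the background was not tested. Gnpnat, which encodes the acetyltransferase of that route, held fkh-Gal4 peaks of 410 and 469 bp (3R, 29738339 to 29738748 and 29739239 to 29739707), and each overlapped a sage-Gal4 peak, of 76 and 259 bp. A fkh-Gal4 peak of 121 bp lay 3 bp outside Gfat2, the gene of an aminotransferase at the start of the route. A sage-Gal4 peak of 115 bp lay 143 bp outside nst, which encodes a mutase that acts later in it. Gfat1 had no peak within 10 kb in either list, and mmy had none within 1 kb.

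Of 3 partners and relatives of kkv (Chs2, exp and reb), 1 had a peak within 1 kb in each list. The class shares summed to 0.756 (fkh-Gal4) and 0.37 (sage-Gal4) genes, beside 11.6% and 5.62% of all protein-coding genes. Chs2, the chitin synthase gene of the gut, had a fkh-Gal4 peak at 820 bp and a sage-Gal4 peak at 252 bp, which did not overlap. The latter met the noncoding gene lncRNA:CR45757. Within 10 kb Chs2 had 4 fkh-Gal4 peaks and 1 sage-Gal4 peak. The genes exp and reb, whose products are needed with kkv for chitin to be deposited, had no peak within 10 kb in either list. The assembly genes knk and rtv had none either.

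Among the relatives of serp and verm, only the long gene Cda4 had peaks within 10 kb: 4 fkh-Gal4 peaks and 1 sage-Gal4 peak in its 49077 bp body. The sage-Gal4 peak of 90 bp (X, 22626578 to 22626667) overlapped the widest of the fkh-Gal4 peaks, of 220 bp (22626393 to 22626612). Cda5 and Cda9 had none within 10 kb. For these 3 genes the class shares within 10 kb summed to 1.41 (fkh-Gal4) and 0.752 (sage-Gal4) genes. Among all protein-coding genes the shares were 29.5% and 14.8%. Of the 8 other genes of the obstructor family, to which Gasp belongs, 0 had a peak within 1 kb in either list, as was also the case for 16 chitinases and imaginal disc growth factors. Most of these genes are short, and the class shares summed to 0.587 (fkh-Gal4) and 0.279 (sage-Gal4) of the 8 obstructor genes and to 2.07 and 1.01 of the 16.

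Genes of zona pellucida domain proteins, listed here as apical matrix genes, had fkh-Gal4 peaks in 5 of 11 bodies and sage-Gal4 peaks in 1 of 11. Among all protein-coding genes the shares were 8.15% and 3.71%. The 11 genes are long, with a median of 15236 bp. The shares of their length classes summed to 2.91 genes for fkh-Gal4 and 1.38 for sage-Gal4. Peaks of 261 bp at pio, which encodes a tracheal lumen protein, and of 118 bp at dpy, the gene of a giant matrix protein, had their centres 9 and 9.5 bp from a gene end. A 92 bp peak at m had its centre 5.5 bp from an end. The peaks in nyo and tyn lay in the interior, with 2 and 3 fkh-Gal4 peaks, and a 248 bp peak in nyo overlapped a sage-Gal4 peak of 238 bp. For neo, a sage-Gal4 peak lay 12 bp outside the gene and no fkh-Gal4 peak lay within 10 kb.

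Of the apical membrane and lumen genes beside uif, sas, which encodes an apical transmembrane protein, had a 128 bp fkh-Gal4 peak with its centre 94.5 bp from an end (3R, 7162839 to 7162966). It overlaps the antisense gene asRNA:CR45909 as well. Of the 3 genes sas, emp and Np, 1 thus had a fkh-Gal4 peak in the body. The class shares for that window summed to 0.753 genes, beside 8.15% of all protein-coding genes. In all, 4 of the 51 genes (Gnpnat, Chs2, Cda4 and nyo) had a peak of both lists within 1 kb. Another 6 had one of the fkh-Gal4 list alone, 2 one of the sage-Gal4 list alone and 39 had none. The same split was not counted over all protein-coding genes, so it cannot be said whether sharing at these genes is unusual. Sage-Gal4 peaks lay within 1 kb of 0 of the 5 tracheal lumen genes and of 6 of these 51. The class shares summed to 0.61 and 4.59 genes, and the share of all protein-coding genes was 5.62%. Both counts thus lay near the background, and whether the sets differ was not tested.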

How the data were processed

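ChIP-seq of Rib-GFP gave 2 peak lists, 1 per driver, from the 2 immunoprecipitations among 4 samples. The input samples were not analysed here. Per the labels, collections were merged, embryos were collected for 8 h and aged for 11 h, and 1.8% formaldehyde was used. The submitters' processing notes name BWA, MACS2 2.1.0.20140616 and the build dm6. Thresholds, filters and the control of the peak calls were not given in the sources used here. The deposited lists hold chromosome, start and end in bp, and no score or depth.

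Starts were turned from 0-based to 1-based. Genes came from the RefSeq table of the same assembly (Release 6), which has no strand. A gene counted where any base of a peak met its body or the body extended by 1 or 10 kb. Peaks were shared at an overlap of 1 bp. The genes named are the 5 lumen matrix genes, the genes at their peaks, the 2 equals nearest in length and matrix genes with a peak within 1 kb, with further matrix genes named for their absence of peaks. These genes and lists were chosen with earlier results of these data known. A planned motif search was not run, since no sequence was used here. Counting was checked on planted peaks. Alternatives were other windows, the wider peaks alone, peak centres, nearest genes, major arms, merged peaks and other overlaps. Python 3.11.15 and pandas 2.3.3 were used.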

Additional observations from a re-analysis of the deposited data

How the results depend on the processing

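Of 79 alternative counts, 69 were within 1.5 times the count reported. Among the 69 are counts of 0 that could not change. For the 5 lumen matrix genes, all 16 sage-Gal4 alternatives gave 0 genes. That outcome was fixed in advance and shows no stability. The nearest sage-Gal4 peak to any of these genes was 32.8 kb away, and the widest window was 20 kb. The fkh-Gal4 count of 2 genes within 1 kb became 1 with a 500 bp window and 1 when the peak centre had to lie in the window, since the peak beside serp starts 980 bp from the gene. The share of all protein-coding genes became 10.5% and 11.5% under these rules, in place of 11.6%. With the wider peaks alone, the number of fkh-Gal4 peaks became 2 in the gene body in place of 4, 3 within 1 kb in place of 5 and 4 within 10 kb in place of 7. Among the 51 other matrix genes, the fkh-Gal4 count within 1 kb became 6 in place of 10 with the wider peaks alone. The share of all protein-coding genes then became 6.69% in place of 11.6%. Within 10 kb the fkh-Gal4 count became 11 in place of 17 with a 5 kb window and 11 with the wider peaks alone. It became 10 with each peak given to its nearest gene body. The shares of all protein-coding genes under these rules were 19.9%, 17.1% and 10.6%, in place of 29.5%. The sage-Gal4 count became 12 in place of 7 with a 20 kb window, beside 24.3% of all protein-coding genes in place of 14.8%. The smaller windows and shorter peak lists hold fewer peaks by construction. None of the 7 fkh-Gal4 peaks at the 5 genes overlapped a sage-Gal4 peak under a 50% reciprocal overlap or with centres within 200 bp. Over all fkh-Gal4 peaks on the same chromosomes the shares were 8.96% and 17.1%. Among the 907 widest fkh-Gal4 peaks only 1 of the 7 was left. It did not overlap a sage-Gal4 peak either, beside 27.4% of those widest peaks. No other outcome was possible, since each of the 7 lay at least 33.2 kb from a sage-Gal4 peak. No paired analysis was possible because each driver has 1 merged list and no result comes from a test. With no score in the lists, a stricter peak threshold could not be set, and width took its place.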

Other observations

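Between 1 and 10 kb from the gene, 7 of the 51 further matrix genes (13.7%) had a fkh-Gal4 peak and none closer, beside 18% of all protein-coding genes. They were mmy (7597 bp), which encodes the enzyme of the last step of the chitin precursor route, the obstructor genes obst-H (6009 bp) and obst-J (7564 bp), the chitinase gene Cht2 (5304 bp), the zona pellucida gene dyl (4714 bp), and emp (6859 bp) and Np (7044 bp). Of these, emp, which encodes a scavenger receptor, was the only one that also had a sage-Gal4 peak in that range, at 6836 bp. Each distance runs from the gene body to the nearest peak of the list.

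In the 50 kb on either side of the gene, the fkh-Gal4 list had 7 peaks around uif, 4 of them in its body, and 2 each around serp, verm and kkv, against a median of 2 and a mean of 2.86 around all protein-coding genes. The sage-Gal4 list had 1 peak around uif and 1 around kkv and 0 around serp and verm, against a median of 0 and a mean of 0.823.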
